A study of Homo sapiens with 9 samples.

Results

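RNAPII peaks that lay in introns far inside protein-coding genes were described in 5 lists of RNA polymerase II (RNAPII) ChIP-seq peaks from HEK293 cells, a human embryonic kidney line. A peak was counted as a deep intron peak when its summit lay more than 3 kb past the transcription start site (TSS) and before the end of the longest protein-coding transcript of a gene of 10 to 300 kb, outside every exon of a protein-coding transcript and more than 500 bp from any protein-coding TSS. This rule was met by 58759 of 142069 peaks. It looked at summits alone, so a broad peak could still run over an exon or a start. The rule applied to 13593 genes, whose eligible introns added up to 695 Mb and made up 92.7% of the bases deep in those genes.

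In the hairpin arm, HEK293 cells were infected with a lentivirus that carried a control short hairpin RNA (control shRNA) or a hairpin against RECQL5, named shRNA5 or shRNA7. In the doxycycline arm, HEK293 T-REx cells carried a plasmid from which full-length RECQL5 is expressed when doxycycline is added, and were grown with 0.0 or 1.0 ng/ml of the drug. Each RNAPII list came from 1 library, called against non-specific IgG: each hairpin had its own IgG library, and the labels name 1 untreated IgG library for both doxycycline lists. With 1 library per group the differences below have no replicate check and no test, and the 95% intervals in brackets cover counting error only. The lists held 5287 (control), 23698 (shRNA5), 32124 (shRNA7), 47060 (no doxycycline) and 33900 (doxycycline) peaks. The study's methods describe longer lists for all 3 hairpins than those held here, so each share and fold rests on the peaks listed here. The control list falls short of its described length by the largest share. Every fold over the control rests on this short list and could differ with the longer ones. Peaks were far shorter in the doxycycline arm, so counts of peaks are compared only within an arm.

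RNAPII transcribes the whole of a gene, introns included, and moves unevenly: it slows near starts, at some exons and near the end of a gene, and a polymerase that pauses or arrests raises the local ChIP signal. Introns make up most of a long gene, so most of the distance that RNAPII travels lies in them. RECQL5 is a DNA helicase of the RecQ family that binds RNAPII, and the comparison of the lists asks where RNAPII gathers inside genes when RECQL5 is depleted or overproduced.

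The following reference sequences (GRCh37, 150 bases each, read in the direction of the gene) surround the summit of the deep intron peak with most tags in the gene that held most such peaks in the control, shRNA7, no doxycycline and doxycycline lists. They show which sequence lay under summits in the genes that the lists single out.

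USP9X, control shRNA, chrX:41021392-41021541, plus strand: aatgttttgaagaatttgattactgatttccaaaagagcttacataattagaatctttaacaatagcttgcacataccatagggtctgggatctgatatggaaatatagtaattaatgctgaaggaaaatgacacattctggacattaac
KDM6A, shRNA7, chrX:44736196-44736345, plus strand: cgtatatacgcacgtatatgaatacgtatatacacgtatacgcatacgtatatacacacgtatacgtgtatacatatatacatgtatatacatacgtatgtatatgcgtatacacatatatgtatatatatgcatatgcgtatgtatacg
USP9X, no doxycycline, chrX:40996208-40996357, plus strand: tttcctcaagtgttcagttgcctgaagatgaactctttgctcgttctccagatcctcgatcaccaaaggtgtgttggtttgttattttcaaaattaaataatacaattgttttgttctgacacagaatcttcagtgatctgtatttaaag
DYRK1A, doxycycline, chr21:38753414-38753563, plus strand: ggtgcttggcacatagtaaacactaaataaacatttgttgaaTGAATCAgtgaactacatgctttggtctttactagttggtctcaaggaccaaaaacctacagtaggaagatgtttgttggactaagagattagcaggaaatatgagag

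A further pair comes from EPHA7, which held deep intron peaks upon both RECQL5 hairpins alone, and was chosen for print after its values were seen.

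EPHA7, shRNA5, chr6:94116812-94116961, minus strand: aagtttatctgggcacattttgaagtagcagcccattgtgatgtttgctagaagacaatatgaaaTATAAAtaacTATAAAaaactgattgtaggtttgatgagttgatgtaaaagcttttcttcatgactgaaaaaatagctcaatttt
EPHA7, shRNA7, chr6:93958799-93958948, minus strand: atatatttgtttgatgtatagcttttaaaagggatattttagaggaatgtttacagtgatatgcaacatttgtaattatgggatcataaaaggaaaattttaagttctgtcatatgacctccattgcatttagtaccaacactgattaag

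In these 6 sequences capitals mark matches, on either strand, to the motifs GGGCGG (the core of the GC box), CCAAT (the box of that name), TATAAA (a form of the TATA box), CACGTG (an E-box), TGANTCA (the site of AP-1, where N is any base) and CGGAAG (a core bound by ETS factors), which were searched because they occur in many promoters and enhancers. The windows were 62.7 to 71.3% A and T. The KDM6A peak was 18636 bp long and also reached the KDM6A start, while its summit lay 3.84 kb past it. The summit of the USP9X peak without doxycycline lay 8 bp past an exon.

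Deep intron peaks took a larger share of the list upon RECQL5 knockdown. They were 1073 of the control peaks (20.3%, 19.2 to 21.4), 8547 of the shRNA5 peaks (36.1%, 35.5 to 36.7) and 13074 of the shRNA7 peaks (40.7%, 40.2 to 41.2). In the doxycycline arm they were 20464 of the peaks without the drug (43.5%, 43.0 to 43.9) and 15601 with it (46.0%, 45.5 to 46.6). The number of deep intron peaks was 7.97-fold higher upon shRNA5 than in the control (7.48 to 8.49), while all other peaks were 3.60-fold more numerous. Upon shRNA7 the corresponding folds were 12.2 (11.4 to 13.0) and 4.52. Summits on exons deep in the same genes were 3.95-fold and 4.85-fold more numerous, so the intron summits increased more than the exon summits beside them. Introns held 71.6% of the deep summits in the control (69.3 to 73.9), 83.6% upon shRNA5 (82.9 to 84.3), 86.4% upon shRNA7 (85.8 to 86.9), and 84.7% and 84.8% in turn without and with doxycycline, all below the 92.7% of deep bases that were intronic. With doxycycline the number of deep intron peaks was 0.762 times that without (0.747 to 0.778), against 0.688 for all other peaks and 0.756 for deep exon summits.

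These folds depended on how strict a peak was required to be. Among peaks with a fold enrichment of at least 10 over the local background, deep intron peaks were 0.663 times as numerous upon shRNA5 as in the control and 1.55 times as numerous upon shRNA7, and doxycycline gave 0.249 times the number without the drug. The median fold enrichment of deep intron peaks was 10.68, 6.36, 6.67, 12.95 and 8.52 in the 5 lists. This limit therefore kept unlike shares of them. Among peaks with an FDR of at most 5% the shRNA7 fold was 6.799 (6.38 to 7.25), below the 7.97 of shRNA5. The significance score is 10 times the negative log10 of the deposited p-value. Among peaks with a score of at least 100, the folds over the control were larger. They were 9.78 (8.77 to 10.9) upon shRNA5 and 16.9 (15.2 to 18.8) upon shRNA7. Doxycycline there gave 1.04 times the number without the drug (0.995 to 1.08). When the lists were cut to the 5287 strongest peaks each, deep intron peaks made up 17.7% upon shRNA5 and 18.7% upon shRNA7, below the 20.3% of the control list. The control list had this length from the outset, so it kept its weaker peaks, among which deep intron peaks were more frequent. With a score of at least 100 in each list, the shares were 16.5% in the control, 26.7% upon shRNA5 and 31.8% upon shRNA7.

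By significance score, deep intron peaks were among the weaker peaks of every list. Their median significance score was 78.1, 85.7, 93.9, 65.6 and 71.1 in the control, shRNA5, shRNA7, no doxycycline and doxycycline lists, and that of the other peaks was 90.3, 140, 164, 102 and 113. When each list was cut into 5 equal parts by score, deep intron peaks rose from 15.3% of the strongest part to 25.9% of the weakest in the control, from 17 to 51.0% upon shRNA5 and from 20.02 to 57.1% upon shRNA7. The same shares ran from 13.2 to 57.7% without doxycycline and from 20.1 to 60.9% with it. By tags the control list differed. Its deep intron peaks held a median of 102 tags (96 to 106) and its other peaks 92 (89 to 94). In the remaining lists deep intron peaks held 77, 79, 11 and 18 tags, and the other peaks 95, 118, 18 and 29.

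The peaks were broad in the hairpin arm, with a median length of 2250, 1790 and 1892 bp for control, shRNA5 and shRNA7, and narrow in the doxycycline arm, at 550 and 607 bp. The share that touched a coding exon followed this, at 57.9, 41.0 and 39.2% in the hairpin lists and 20.2 and 23.02% in the doxycycline lists. Few of them reached within 500 bp of a coding start (11.6, 6.07, 5.67, 2.20 and 2.20% in the same order). Without the peaks that touched a coding exon, the number of deep intron peaks was 11.1-fold higher upon shRNA5 and 17.6-fold higher upon shRNA7 than in the control.

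Across the 3 kb limit the density rose upon both RECQL5 hairpins and was alike in the other lists. In the kilobase just outside it, 2 to 3 kb past the TSS, intron summits numbered 2.72, 21.5, 29.6, 44.2 and 29.0 per Mb in the 5 lists, and in the kilobase just inside it they numbered 3.03, 30.1, 46.0, 46.0 and 29.5 per Mb. Median tags per peak were 74 outside and 77 inside upon shRNA5, 74 and 91 upon shRNA7, and 12 and 12 without doxycycline.

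Deep intron peaks sat mostly in genes with a peak at a coding start. Such a start peak was any peak that reached within 500 bp of any coding TSS of the gene. A broad deep intron peak could therefore itself count as the start peak. A peak within 500 bp of the TSS of the host gene was present for 70.1% (67.3 to 72.7) of the control peaks, 88.8% of those upon shRNA5, 93.4% upon shRNA7, and 95.4% and 95.4% in turn without and with doxycycline, although such genes held 15.1, 48.7, 60.7, 65.2 and 53.3% of the eligible bases. Density was 7.17 peaks per Mb in genes with a start peak and 0.544 in genes without one in the control, 22.4 and 2.68 upon shRNA5, and 29.0 and 3.16 upon shRNA7. It was 43.1 and 3.93 without doxycycline and 40.2 and 2.20 with it.

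Position along the gene was described as peaks per Mb of eligible intron in 10 equal parts of gene length, from the start to the end. Summits had to lie over 3 kb past the TSS, so genes of 10 to 30 kb added no intron to the first part. Density in such genes was higher than in longer genes in every list. The first part set against a later part therefore mixes gene length with position. These parts were not read within classes of gene length. The control list held 1.196 peaks per Mb in the first part (0.924 to 1.54), at most 1.70 (1.45 to 1.99) in the first 9 parts, and 2.56 (2.18 to 2.998) in the last. Upon shRNA5 the density was highest in the first part at 16.96 (15.9 to 18.1), lowest in the fifth part at 10.8 (10.1 to 11.5) and 13.9 in the last. Upon shRNA7 the same parts held 29.1 (27.7 to 30.6), 16.7 (15.8 to 17.6) and 20.8. Over all genes both RECQL5 hairpins were thus higher at each end of the gene than in the fifth part, and highest in the first. Without doxycycline the first part held 27.3 (25.8 to 28.8) and the last 34.9 (33.4 to 36.4) peaks per Mb, and with doxycycline the first part was the lowest of all, at 15.2 (14.2 to 16.4), against 24.7 (23.5 to 26.1) in the last. The rise at the end depended on the genes: in 2302 genes with a start peak in all 5 lists, the last part was the lowest upon both RECQL5 hairpins, at 32.3 and 43.7 per Mb, against 42.4 and 63.3 in the first.

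**Figure D1:**
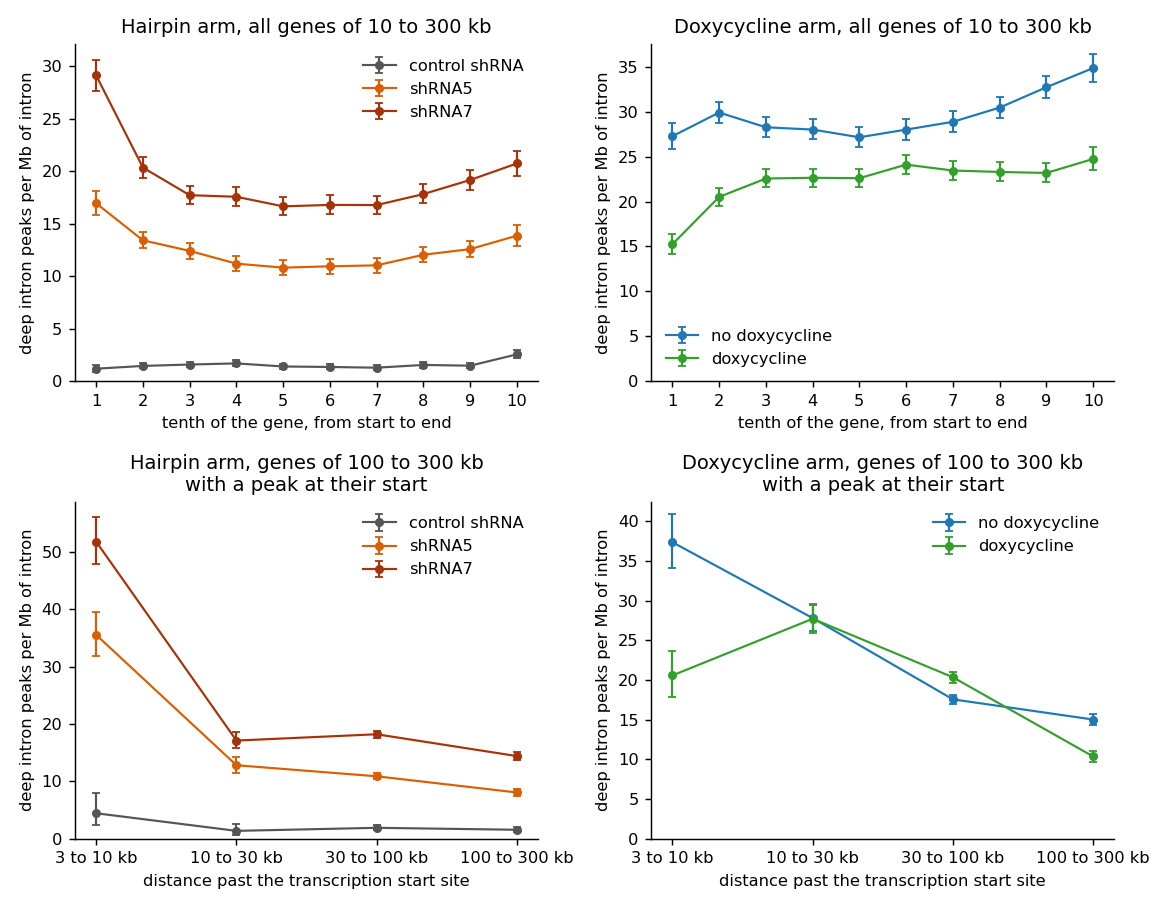
Deep intron peaks per Mb of eligible intron, with 95% counting intervals as bars, in the hairpin arm (left) and the doxycycline arm (right), in 10 equal parts of gene length in all genes (top) and by distance past the TSS in genes of 100 to 300 kb that had a peak at their start in that list (bottom). The shRNA5 and shRNA7 lines are highest next to the start and the doxycycline line is lower there than the no doxycycline line, with 20.6 against 37.3 peaks per Mb at 3 to 10 kb.

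The share of deep intron peaks past the gene midpoint was 51.6% in the control, 48.8% upon shRNA5, 48.2% upon shRNA7, and 52.2% and 52.9% in turn without and with doxycycline, where the eligible intron itself was 50.1% past the midpoint. The values of the 2 RECQL5 hairpins rested on the peaks nearest the start, since with a limit of 5 kb past the TSS they were 53.3 and 52.7%, above the 51.9% of the bases then eligible.

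Distance in kilobases was read within genes of 100 to 300 kb that had a start peak, where the length of the gene does not force the position. From 3 to 10 kb past the TSS the density was 35.5 peaks per Mb upon shRNA5 (31.9 to 39.5) and 51.8 upon shRNA7 (47.8 to 56.0), and from 10 to 30 kb it was 12.8 and 17.1. The ratio of the nearer to the farther density was therefore 2.77 (2.36 to 3.26) upon shRNA5 and 3.03 (2.68 to 3.41) upon shRNA7. In the control this ratio was 3.23, but from 9 and 8 peaks, with an interval of 1.29 to 8.09 that covers both hairpins. Without doxycycline the ratio was 1.34 (1.196 to 1.51), and with doxycycline it was 0.742 (0.630 to 0.875), so the density next to the start was below that farther in. Of these nearer peaks few ran on from the start: 8.01% of them upon shRNA5, 5.59% upon shRNA7 and 0.556% with doxycycline touched a coding start, and without them the ratios were 2.69, 2.96 and 0.751. Farther in, beyond 100 kb, the density with doxycycline was again below that without (10.4, 9.73 to 11.03, and 15.0, 14.4 to 15.7, per Mb). At 30 to 100 kb it was higher (20.3, 19.7 to 21.0, and 17.6, 16.97 to 18.2, per Mb). These densities rest on unlike genes, 1305 with a start peak with doxycycline and 1666 without. At 30 to 100 kb the peaks themselves numbered 1760 with doxycycline and 1941 without. Over all genes of 10 to 300 kb the density there was 19.7 with it and 21.8 without. In genes of 100 to 300 kb with a start peak in all 5 lists, peaks covered 3.68 and 2.55% of the intron there.

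Density fell with gene length in every list. In genes of 10 to 30, 30 to 100 and 100 to 300 kb, the control list held 6.52, 2.10 and 0.379 peaks per Mb of eligible intron. Upon shRNA5 these densities were 32.2, 17.1 and 5.96, and upon shRNA7 they were 35.3, 25.9 and 11.5. They were 81.5, 42.0 and 12.8 without doxycycline and 50.4, 35.5 and 9.39 with it. The density in the longest class was 0.0581 times that in the shortest in the control (0.0480 to 0.0702), 0.185 upon shRNA5 (0.174 to 0.197), 0.326 upon shRNA7 (0.309 to 0.343), 0.157 without doxycycline (0.151 to 0.164) and 0.186 with it (0.178 to 0.196). Within genes that had a start peak in the list the fall remained, from 24.4 to 1.84 in the control, 59.4 to 11.2 upon shRNA5, 59.5 to 18.1 upon shRNA7, 130 to 18.8 without doxycycline and 93.1 to 17.5 with it.

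**Figure D2:**
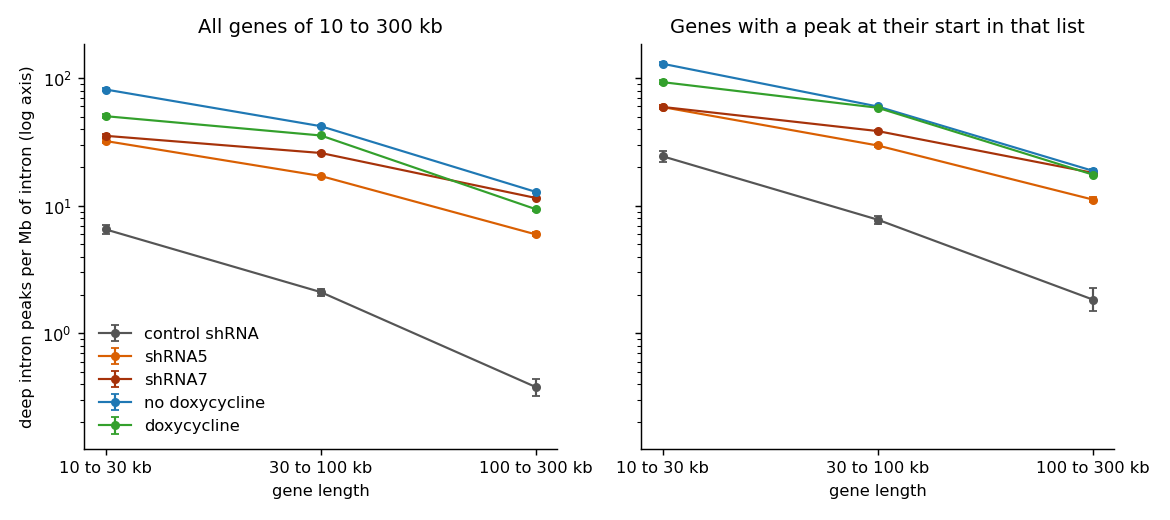
Deep intron peaks per Mb of eligible intron on a log axis, with 95% counting intervals as bars, in 3 classes of gene length for all genes (left) and for genes with a peak at their start in that list (right). Every line falls with gene length, the control line most steeply, from 6.52 to 0.379 peaks per Mb over all genes.

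Over all genes, the share past the midpoint was higher in short than in long genes in all lists but that of shRNA7. In genes of 10 to 30 kb, 59.4% of deep intron peaks in the control (54.5 to 64.0), 60.7% without doxycycline and 63.2% with it lay past the midpoint, where 53.7% of the eligible bases lay. In genes of 100 to 300 kb these shares were 51.0, 47.7 and 42.6% against 49.6% of the bases. For the RECQL5 hairpins the shares in the shorter and longer class were 51.6 and 47.4% upon shRNA5, and 48.3 and 48.9% upon shRNA7.

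To compare lists over the same genes, 2302 genes with a start peak in all 5 lists were taken, which held 99.0 Mb of eligible intron. They held 563 deep intron peaks in the control, 3575 upon shRNA5, 4822 upon shRNA7, and 8082 and 7452 in turn without and with doxycycline. The number was 6.35-fold (5.81 to 6.94) and 8.56-fold (7.85 to 9.35) that of the control upon shRNA5 and shRNA7, comparisons that share the control list. More deep intron peaks than in the control were found upon shRNA5 in 1133 of these genes (49.2%), against 24.7% of all 13593 genes, and upon shRNA7 in 1291 (56.1%), against 32.3% of all genes. With doxycycline 493 of them (21.4%) had more peaks than without and 937 (40.7%) had fewer, against 9.62% and 27.1% of all genes.

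Within these genes the fold upon knockdown rose with gene length. In genes of 10 to 30, 30 to 100 and 100 to 300 kb it was 3.56 (3.06 to 4.14), 7.16 (6.32 to 8.11) and 11.9 (9.29 to 15.3) upon shRNA5, and 3.34 (2.87 to 3.89), 9.68 (8.56 to 10.9) and 20.7 (16.2 to 26.4) upon shRNA7. The longest class had 67 control peaks in 288 genes, which sets the width of its interval. The 2 RECQL5 hairpins gave like numbers in the shortest genes (shRNA7 over shRNA5 0.939, 0.848 to 1.04) and shRNA7 gave 1.73 times the number of shRNA5 in the longest (1.59 to 1.89). With doxycycline the shortest genes had 0.725 times the number without (0.678 to 0.776), and the longer classes had 0.990 (0.9499 to 1.03) and 0.976 (0.908 to 1.05), intervals that include no difference. Among peaks with a fold enrichment of at least 10 the shRNA5 folds over the control in the 3 classes were 0.434, 0.527 and 0.767 and the shRNA7 fold in the shortest class was 0.636, and among peaks with an FDR of at most 5% shRNA7 gave 0.787 times the number of shRNA5 over all 2302 genes, 0.622 (0.555 to 0.698) in the shortest and 0.946 (0.857 to 1.05) in the longest.

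Since neighbouring peaks can fuse into 1 broad peak, the bases of eligible intron under peaks were counted as well. In genes of 100 to 300 kb peaks covered 0.545% of the eligible intron in the control, 5.37% upon shRNA5 and 10.2% upon shRNA7, and in genes of 10 to 30 kb they covered 8.90, 28.0 and 44.9%. The folds in covered bases over the control were thus 3.15, 6.17 and 9.84 upon shRNA5 and 5.05, 11.01 and 18.6 upon shRNA7 with rising gene length, and shRNA7 covered 1.60 times the bases of shRNA5 in the shortest genes, where the counts were alike. By this measure doxycycline covered 0.855 times the bases without the drug in the shortest genes and 1.17 and 1.18 times in the longer classes, where the intervals of the folds in number included no difference, and 1.07 times over all 2302 genes. Among peaks with a score of at least 100, the number of deep intron peaks in these genes was also higher with doxycycline, at 1.24 times the number without, while it was 0.316 times (0.301 to 0.332) among peaks with a fold enrichment of at least 10, and 0.841 times when peaks under 1 kb apart were merged.

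**Figure D3:**
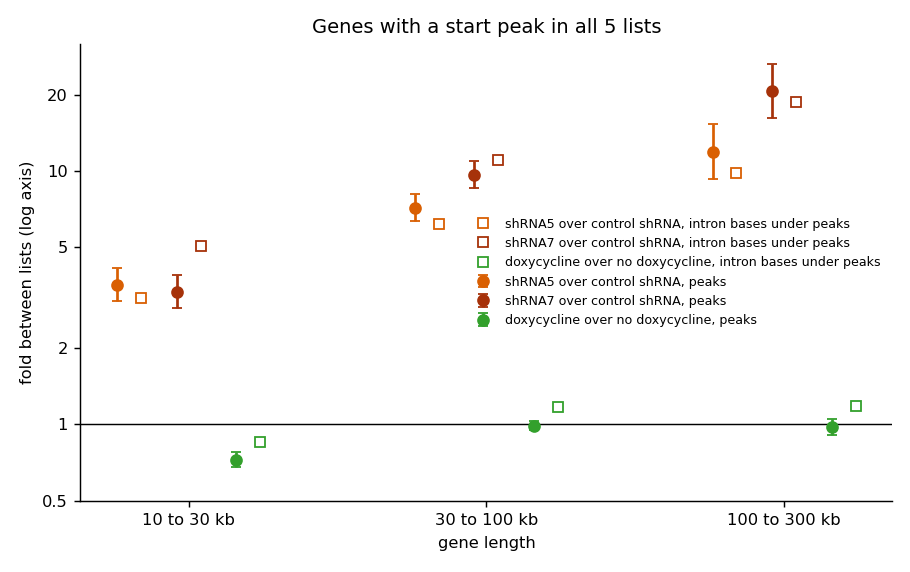
Fold between lists on a log axis in 2302 genes with a start peak in all 5 lists, by gene length, for the number of deep intron peaks (filled circles, with 95% counting intervals) and for the eligible intron bases under peaks (open squares, no interval). The folds of shRNA5 and shRNA7 over the control rise with gene length by either measure, to 20.7 and 18.6 for shRNA7 in the longest class, while the doxycycline folds lie between 0.725 and 1.18.

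Deep intron peaks were spread over 701, 3584, 4582, 5223 and 3483 genes in the control, shRNA5, shRNA7, no doxycycline and doxycycline lists, but they gathered in some of them. Genes with 5 or more held 8.29% of the deep intron peaks in the control, 35.6% upon shRNA5, 47.7% upon shRNA7, and 63.9% and 70.7% in turn without and with doxycycline. A deep intron peak was found in all 5 lists in 398 genes, of which 103 were 10 to 30 kb, 221 were 30 to 100 kb and 74 were 100 to 300 kb long.

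USP9X (chrX:40944698-41095832, plus strand), which encodes a deubiquitinating enzyme and spans 151 kb of the X chromosome, held most deep intron peaks in the control and no doxycycline lists. It held 11 in the control, 19 upon shRNA5, 4 upon shRNA7, and 63 and 61 in turn without and with doxycycline. Upon shRNA7 the list also gave no peak at its start, and peaks covered 19.5% of its eligible intron against 71.9% upon shRNA5.

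KDM6A (chrX:44732434-44972024, plus strand), which encodes a histone H3 lysine demethylase, held 1 deep intron peak in the control, 25 upon shRNA5 and 41 upon shRNA7, the most of the latter list, and 33 and 38 without and with doxycycline. Peaks covered 1.35, 23.03, 61.2, 8.59 and 14.4% of its eligible intron. NIPBL (chr5:36876871-37066515, plus strand), whose product loads cohesin onto DNA, held 0, 17, 33, 14 and 7.

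EPHA7 (chr6:93949756-94129306, minus strand), which encodes an ephrin receptor, held none in the control, 15 upon shRNA5, 37 upon shRNA7 and none in either doxycycline list. It had a start peak in all 5 lists, and its eligible intron was 0.104% covered without doxycycline, 0.173% covered with it and 47.6% covered upon shRNA7. The 2 lists in which it held deep intron peaks are therefore those of the RECQL5 hairpins.

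DYRK1A (chr21:38739075-38898660, plus strand) and ARIH1 (chr15:72766671-72895328, plus strand), which encode a protein kinase and a ubiquitin ligase, stood out in the doxycycline arm. DYRK1A held 36 deep intron peaks without doxycycline and 67 with it, the most of that list, and none, 18 and 24 in the control, shRNA5 and shRNA7 lists. ARIH1 held 35 and 62 in the doxycycline arm and none, 18 and 16 in the hairpin arm. The eligible intron of DYRK1A was covered to 16.6% without and 41.6% with doxycycline, and that of ARIH1 to 25.0 and 54.7%.

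TLK2 (chr17:60536019-60691025, plus strand), the gene of a kinase that acts in chromatin assembly, held none, 21, 12, 35 and 24 in the 5 lists in the same order. KANSL1 (chr17:44107282-44302755, minus strand), the gene of a scaffold protein of a histone acetyltransferase complex, held 7, 10, 10, 51 and 59. PRRC2B (chr9:134269440-134375558, plus strand) held 10, 9, 1, 40 and 19, while its covered intron was 28.4, 85.5, 65.3, 84.6 and 95.4%, so that few peaks upon shRNA7 stood for long covered stretches.

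**Figure D4:**
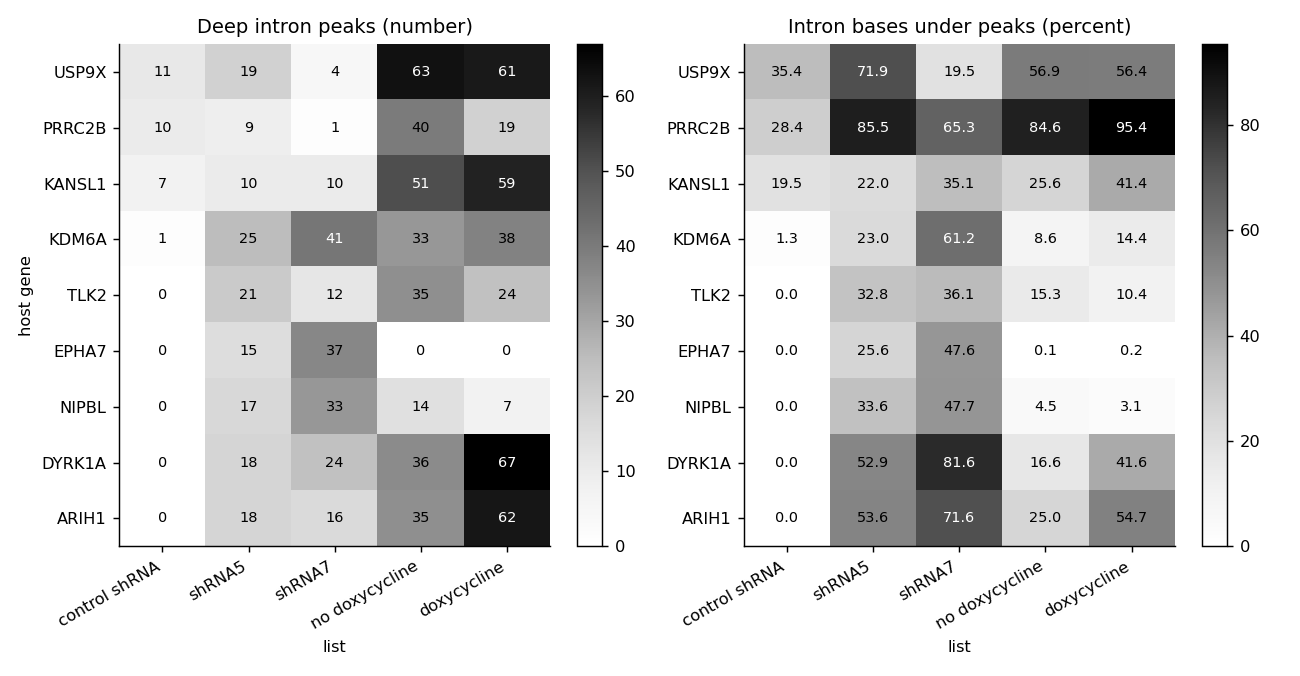
Number of deep intron peaks (left) and percent of eligible intron bases under peaks (right) in 9 genes that were among the 3 with most deep intron peaks in at least 1 list. EPHA7 is filled upon shRNA5 and shRNA7 alone, and PRRC2B shows 1 peak over 65.3% of its intron upon shRNA7.

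The deep intron peaks with most tags were mostly of another kind, broad domains over compact and heavily occupied genes. In MDM2, the gene of the ubiquitin ligase that acts on p53, a single control peak at chr12:69205634-69226719 held 1221 tags, the shRNA5 peak at chr12:69204462-69241433 held 3369 and the doxycycline peak at chr12:69220340-69241368 held 1494. The summits of these 3 peaks lay in introns 4, 3 and 7 of the gene. Upon shRNA5 the peak with most tags (4661) had its summit in MAP3K12, but its 41069 bp reached the start of PCBP2. Upon shRNA7 the 2 such peaks held 6807 and 6205 tags, with summits in the read-through gene ENSG00000268083 and in LSR, and reached the starts of ECH1 and HNRNPL and of USF2 and HAMP. Without doxycycline the peak with most tags, 785, had its summit 295 bp past an exon near the end of FANCI, a Fanconi anaemia gene, and reached the start of POLG. With doxycycline the second highest, in the first intron of HNRNPC, held 1326 tags over 16981 bp.

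TEX14 (chr17:56634039-56769416, minus strand), a gene of germ cell bridges, differed from these in having 3 narrow and strong sites at the same place in every list. At the first site in genome order the 5 summits lay between chr17 positions 56709000 and 56709073, and the peaks held 728 to 1693 tags. The summits of the second and the third site spanned 17 and 127 bp over the 5 lists, with 488 to 1186 and 510 to 1241 tags. The annotation places a small RNA gene on the minus strand under each site: a U3 small nucleolar RNA gene at chr17:56709003-56709197, and the U1 small nuclear RNA pseudogenes RNU1-60P at chr17:56736510-56736666 and RNU1-85P at chr17:56756888-56757051. Genes of these families have many similar copies elsewhere in the genome, so the tags at these sites are uncertain. Capitals in the following reference sequence (GRCh37) mark the bases in the annotated U3 gene.

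TEX14, no doxycycline, chr17:56708961-56709110, minus strand: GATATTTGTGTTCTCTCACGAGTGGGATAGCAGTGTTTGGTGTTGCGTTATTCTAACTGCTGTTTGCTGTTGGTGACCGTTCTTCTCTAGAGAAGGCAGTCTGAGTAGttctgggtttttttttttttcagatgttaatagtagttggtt

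Over all lists, summits within 500 bp of a small RNA gene were 1.58, 0.667, 0.841, 0.904 and 0.904% of deep intron peaks, against 0.444% of positions taken every 1 kb along all eligible introns. These positions lay in longer genes than the summits. In genes of 10 to 30 kb with a start peak the share was 1.42, 0.817, 0.662, 0.949 and 1.05%. Positions there gave 1.01, 0.801, 0.774, 0.718 and 0.767%, so the shRNA5 share was near that of positions and the shRNA7 share below it. In such genes of 100 to 300 kb the share was above that of positions in every list. In the control it rested on 3 of 79 summits, which were the 3 TEX14 sites. Among the 20 deep intron peaks with the highest significance score, summits this near a small RNA gene numbered 4, 4, 5, 5 and 4, and the 3 TEX14 sites were among them in every list.

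The genes that the study followed singly held few deep intron peaks. RECQL5 itself held none in the hairpin lists and 1 in each doxycycline list, with 10 and 85 tags. OPA1 held none, 1, 2, 1 and 1 in the 5 lists, CTNNBL1 held 1, without doxycycline, and KIFAP3, IFT80 and EFNA2 held none in any list. ITPR1 was longer than the limit of 300 kb.

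The shRNA7 list lacked peaks over some genes that were heavily occupied in the other lists. Of 145 genes with more than 50% of their eligible intron under control peaks, 41 had no such base under a shRNA7 peak, 39 of these had no start peak either, and the corresponding numbers without a covered base were 4 upon shRNA5, 0 without doxycycline and 2 with it. Of 102 genes covered over more than 50% in all the other 4 lists, 28 had no covered base upon shRNA7, among them HNRNPC, TLE3, TOMM20, YWHAE and ZNF207. TLE3, the gene of a transcriptional corepressor, had 84.6, 99.0, 93.4 and 84.2% of its eligible intron covered in the other lists. The control list had a gap of the same kind. Of 147 genes covered over more than 50% in its other 4 lists, 16 had no covered base in the control, and 11 of these had no start peak there. The same numbers without a covered base were 0 of 73 upon shRNA5, 0 of 74 without doxycycline and 1 of 84 with it. All 41 genes were shorter than 100 kb. The lower fold of shRNA7 in short genes was read only in genes with a start peak in every list. The 39 genes without a shRNA7 start peak were therefore not among the genes of that fold. Whether peaks are missing from the shRNA7 list was not tested.

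The lists were also compared peak by peak, counting any shared base. Of the deep intron peaks of the control, 93.6% (91.9 to 94.9) were overlapped by a shRNA5 peak and 75.1% (72.4 to 77.6) by a shRNA7 peak, below the 97.4% and 88.4% of all control peaks. Of the shRNA5 deep intron peaks, 78.2% were overlapped by a shRNA7 peak, against 85.2% of all shRNA5 peaks. In the other direction a control peak overlapped 8.30% of the shRNA5 and 3.11% of the shRNA7 deep intron peaks, against 19% and 11.7% of all peaks of these lists. With doxycycline 43.2% (42.4 to 43.96) were overlapped by a peak without it, against 61.8% of all peaks, and in reverse 35.2% (34.5 to 35.8) against 45.6%. Summits were less often shared than bases: within 500 bp of each other lay 28.7% of the shRNA5 summits and a shRNA7 summit, and 31.5% of the doxycycline summits and a summit without the drug.

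Base composition was read in 2 kb around the summits. The median AT content was 56.6% in the control (55.7 to 57.2), 59.0% upon shRNA5 (58.9 to 59.2), 60.3% upon shRNA7 (60.1 to 60.4), 55.9% without doxycycline (55.8 to 56.0) and 57.7% with it (57.6 to 57.8), while the other peaks had medians of 47.5 to 50.1%. Summits in exons as deep in the gene had medians of 55.25, 58.6, 59.6, 53.45 and 56.8% in the same order, near those in introns. All eligible introns had a median of 58.8%. Hence the control and both doxycycline lists lay below the intron median and shRNA7 above it. The shRNA5 median changed sides with the reference when all gene lengths were pooled: it was 59.3% in genes with a start peak, whose introns had a median of 59.7%. Within each class of length in those genes it lay above that of positions. From the shortest to the longest class it was 56.15 (55.6 to 56.5), 59.3 (59.1 to 59.5) and 61.3% (61.0 to 61.55). Positions there had medians of 55.75, 59.0 and 60.6%, the first of them inside the shRNA5 interval. Over all deep intron peaks the median was higher upon knockdown than in the control and higher with doxycycline than without. Among peaks with a fold enrichment of at least 10 this did not hold for shRNA5. Its median there was 53.75% (53.05 to 54.45), and that of the control was 54.4% (53.65 to 55.15). The shRNA7 median there was 60.55%, and those without and with doxycycline were 55.5 and 56.2%. Each list came from 1 library, so a bias of a library for base composition cannot be told apart from its treatment.

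**Figure D5:**
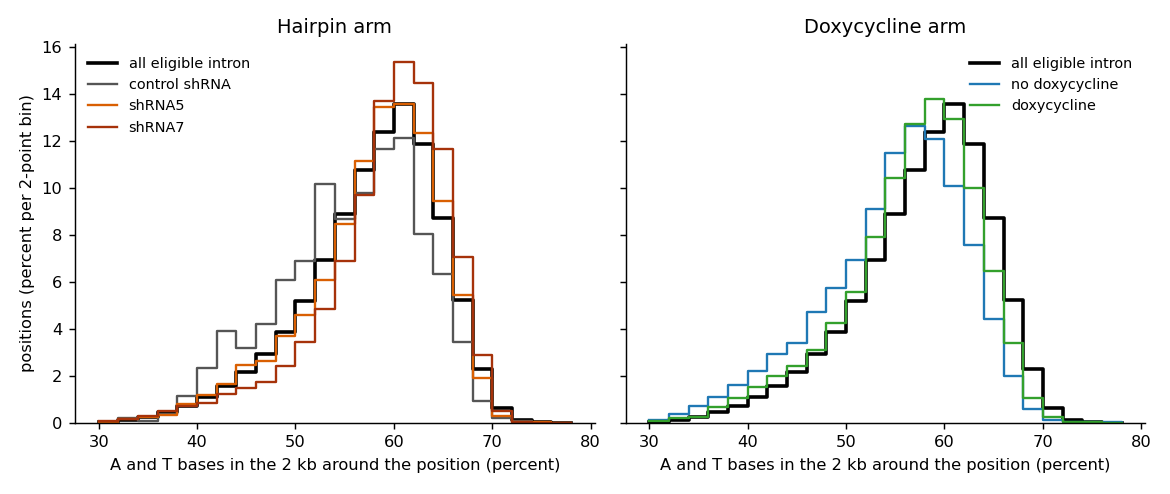
Distribution of AT content in the 2 kb around deep intron summits, in percent of summits per bin of 2 percentage points, for the hairpin arm (left) and the doxycycline arm (right), with positions every 1 kb along all eligible introns in black. The shRNA7 line lies to the right of the black line and the no doxycycline line to its left, with medians of 60.3 and 55.9% against 58.8%.

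Distance to the nearest exon was compared with positions spaced along eligible introns. Within 500 bp before the next exon lay 20.6, 15.6, 14.5, 17.1 and 17.4% of the summits of the control, shRNA5, shRNA7, no doxycycline and doxycycline lists, against 9.01% of positions along all eligible introns. Within 500 bp after an exon lay 16.3, 11.4, 9.52, 14.6 and 14.3%, against 8.45%. The summits lay in shorter genes than these positions, so the shares were also read by gene length in genes with a start peak. In genes of 10 to 30, 30 to 100 and 100 to 300 kb, 24.2, 17.4 and 12.7% of control summits lay that near before an exon, against 22.6, 12.4 and 6.36% of positions, and the share was above that of positions in every list and class, at 22.8 against 21.8% in the shortest genes and 8.41 against 5.80% in the longest upon shRNA7. In the shortest genes the intervals of the 3 hairpin lists included the share of positions. After an exon the RECQL5 hairpins gave less: upon shRNA5 17.5, 11.3 and 6.04% of summits lay there against 19.3, 11.1 and 5.71% of positions, and upon shRNA7 15.2, 9.52 and 5.89% against 19.1, 10.7 and 5.61%. The excess after an exon over all genes upon both RECQL5 hairpins was thus small or turned within classes of gene length. The introns that held them were shorter, with median lengths of 5.80, 8.29, 9.38, 6.91 and 7.01 kb against 18.3 kb for eligible positions. First introns held 16.0, 21.3, 22.1, 18.8 and 17.5% of the summits and 25.5% of the eligible positions. In genes with a start peak first introns held 16.8, 21.2, 22.2, 18.8 and 17.5% of the summits. Positions in those genes gave 20.9, 22.9, 23.9, 24.3 and 23.6%. Median intron lengths there were 5.92, 8.20, 9.44, 6.85 and 6.93 kb for summits. For positions they were 13.0, 16.1, 17.4, 17.4 and 16.2 kb. Intron length and the share of first introns were not read within classes of gene length.

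Windows with features of promoters were counted as well. A window of 500 bp with the composition of a CpG island (at least 50% G and C, and at least 0.6 of the CpG count that its bases would give) was found at 2.42, 1.10, 1.08, 1.99 and 1.295% of them, against 0.641% of eligible positions and 42.6 to 58.0% of all other peaks. Summits in deep exons had like low shares, of 1.88, 1.73, 2.47, 4.11 and 2.86%. The start of a long noncoding RNA gene lay within 500 bp of 1.96, 1.28, 0.971, 1.03 and 0.885%, against 0.504% of positions. The start of a noncoding transcript of a coding gene lay that near to 9.23, 7.00, 5.54, 7.41 and 7.61%, against 2.87%. These positions lay in longer genes than the summits. In genes of 10 to 30 kb with a start peak the share was 12.5, 10.6, 9.98, 11.4 and 11.9%. Positions there gave 9.36, 8.71, 8.72, 8.67 and 8.69%. There the CpG island shares were 0.712, 0.933, 1.53, 1.92 and 1.39%, against 1.07, 1.12, 1.22, 1.25 and 1.21%. In such genes of 100 to 300 kb both shares were above those of positions in every list. In the control they rested on 6 of 79 summits for noncoding transcript starts and 3 of 79 for CpG islands.

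The 6 motifs were counted in 300 bp around each summit on both strands, and compared with positions that were not matched for gene length. GGGCGG, the core of the GC box, was present at 3.91, 3.10, 2.82, 8.13 and 4.99% of the summits in the 5 lists, against 4.90% of eligible positions and 30.6 to 40.01% of the other peaks. TATAAA was present at 23.3, 30.5, 31.5, 21.4 and 28.2%, against 27.7%. CCAAT was present at 30.1 to 37.7%, against 34.5%, TGANTCA at 8.48 to 9.997%, against 8.52%, CACGTG at 2.77 to 3.85%, against 2.96%, and CGGAAG at 2.52 to 4.85%, against 2.66%. Across the 5 lists TATAAA was ordered as the median AT content was, from no doxycycline to shRNA7, while the GC box core was most frequent without doxycycline and rarest upon shRNA7.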

How the data were processed

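RNAPII ChIP-seq was analysed from the peak lists of 5 libraries, 1 per group. Per the submitters' processing notes the authors used CASAVA 1.8, Bowtie 0.12.7 and MACS 1.4.2 on hg19, and each RNAPII library was called against IgG with no pooling. The deposited lists give, for each peak, its position and summit, a tag count, a score (10 times the negative log10 of the p-value), a fold enrichment (a ratio to the local background) and an FDR in percent. The number of reads in each library was not used here. All values were taken as deposited. The totals of tags in peaks ran from 842310 in the control to 6698771 upon shRNA7, and 1449163 and 1539844 without and with doxycycline.

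Summits were placed on protein-coding transcripts of GENCODE v44 lifted to GRCh37, which may be newer than the annotation used by the authors. Eligible introns were described by positions every 1000 bp (every 10th of them for motifs). Gene length was the span of the longest protein-coding transcript. Shares carry Wilson 95% intervals, ratios of counts Wilson intervals turned into odds, and medians order-statistic intervals. Intervals take peaks as independent. The rule and the statistics were tested on simulated data. Python 3.11.15, numpy 2.4.6, pandas 2.3.3, scipy 1.17.1 and matplotlib 3.10.9 were used.

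The members and lists were chosen with earlier results of these data known. Named genes were, per list, the 3 with most deep intron peaks (ties by summed tags) and the hosts of the 2 such peaks with most tags, then the 5 genes with a deep intron peak in all 5 lists and the largest summed tags, and the genes followed by the study. The EPHA7 sequences, the TEX14 sites and the genes without a shRNA7 peak were chosen after their values were seen. A gene that the rule also named is not reported here. Alternatives were a score of at least 100, an FDR of at most 5%, a fold enrichment of at least 10, merged peaks, other exons, a 5 kb limit and stricter overlaps. Genes with a start peak, lists cut to 5287 peaks, peaks off exons or starts, and intron bases under peaks were added after seeing the data.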

Additional observations from a re-analysis of the deposited data

How the results depend on the processing

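No paired analysis was possible because there was 1 library in each group, and for the same reason no library was left out. Of 344 values recomputed under an alternative, 105 moved by less than their interval, 218 moved by more in the same direction and 21 reversed. The reversed values were the shRNA5 fold over the control and the shRNA7 fold in genes of 10 to 30 kb under a fold enrichment of at least 10, the doxycycline fold under a score of at least 100 or counted in bases, the shRNA7 fold over shRNA5 under the FDR limit, the position upon knockdown and the AT content upon shRNA5, and the cause was not tested. The lists hold called peaks alone, and the study's methods describe like numbers of reads for libraries that were compared. The comparisons with a start peak, with lists cut to equal length, without peaks on exons and in bases were chosen after seeing the data. Values that left the interval are given by setting, except that folds in genes with a start peak in all 5 lists are given only where they reversed.

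With a score of at least 100, the deep intron share (%) was 16.5 (control), 26.7 (shRNA5), 31.8 (shRNA7), 24.8 (no doxycycline) and 31.3 (doxycycline), the share past the midpoint (%) was 57.9 (control), 49.1 (shRNA7), 53.1 (no doxycycline) and 54.9 (doxycycline), the density ratio of the longest to the shortest genes was 0.0353 (control), 0.14 (shRNA5), 0.247 (shRNA7), 0.0706 (no doxycycline) and 0.105 (doxycycline), the median AT content (%) was 55.3 (control), 58.6 (shRNA5, reversed), 54.5 (no doxycycline) and 57.4 (doxycycline), the intron share of deep summits (%) was 64.2 (control), 79.6 (shRNA5), 83.1 (shRNA7), 79.6 (no doxycycline) and 81.1 (doxycycline), the fold in number was 9.78 (shRNA5 over control), 16.9 (shRNA7 over control) and 1.04 (doxycycline over no doxycycline, reversed) and the fold in genes with a start peak in all 5 lists, all lengths, was 1.24 (doxycycline over no doxycycline, reversed). With an FDR of at most 5%, the deep intron share (%) was 33.7 (shRNA7), the density ratio of the longest to the shortest genes was 0.262 (shRNA7), the intron share of deep summits (%) was 83.6 (shRNA7), the fold in number was 6.799 (shRNA7 over control), the fold in genes with a start peak in all 5 lists, all lengths, was 0.787 (shRNA7 over shRNA5, reversed), the fold in genes with a start peak in all 5 lists, 30 to 100 kb, was 0.787 (shRNA7 over shRNA5, reversed) and the fold in genes with a start peak in all 5 lists, 100 to 300 kb, was 0.946 (shRNA7 over shRNA5, reversed). With a fold enrichment of at least 10, the deep intron share (%) was 15.4 (control), 7.89 (shRNA5), 12.4 (shRNA7), 41.6 (no doxycycline) and 29.97 (doxycycline), the share past the midpoint (%) was 57.3 (control), 58.03 (shRNA5, reversed), 49.3 (shRNA7) and 56.7 (doxycycline), the density ratio of the longest to the shortest genes was 0.0432 (control), 0.0779 (shRNA5), 0.195 (shRNA7), 0.141 (no doxycycline) and 0.106 (doxycycline), the median AT content (%) was 54.4 (control), 53.8 (shRNA5, reversed), 60.5 (shRNA7), 55.5 (no doxycycline) and 56.2 (doxycycline), the intron share of deep summits (%) was 68.7 (control), 70.4 (shRNA5), 70.99 (shRNA7), 84.2 (no doxycycline) and 82.5 (doxycycline), the fold in number was 0.663 (shRNA5 over control, reversed), 1.55 (shRNA7 over control) and 0.249 (doxycycline over no doxycycline), the fold in genes with a start peak in all 5 lists, all lengths, was 0.509 (shRNA5 over control, reversed), the fold in genes with a start peak in all 5 lists, 10 to 30 kb, was 0.434 (shRNA5 over control, reversed) and 0.636 (shRNA7 over control, reversed), the fold in genes with a start peak in all 5 lists, 30 to 100 kb, was 0.527 (shRNA5 over control, reversed) and the fold in genes with a start peak in all 5 lists, 100 to 300 kb, was 0.767 (shRNA5 over control, reversed). With peaks under 1 kb apart merged, the deep intron share (%) was 17.4 (control), 32.7 (shRNA5), 36.5 (shRNA7), 40.9 (no doxycycline) and 40.3 (doxycycline), the density ratio of the longest to the shortest genes was 0.229 (shRNA5), 0.378 (shRNA7), 0.244 (no doxycycline) and 0.269 (doxycycline), the median AT content (%) was 59.4 (shRNA5), 56.4 (no doxycycline) and 58.05 (doxycycline), the share past the midpoint (%) was 51.3 (no doxycycline) and 51.2 (doxycycline), the intron share of deep summits (%) was 86.6 (no doxycycline) and 85.4 (doxycycline) and the fold in number was 10.98 (shRNA7 over control) and 0.6902 (doxycycline over no doxycycline). With the exons of all transcripts left out, the deep intron share (%) was 17.4 (control), 33.3 (shRNA5), 38.1 (shRNA7), 39.9 (no doxycycline) and 42.2 (doxycycline), the intron share of deep summits (%) was 61.3 (control), 77.2 (shRNA5), 80.8 (shRNA7), 77.7 (no doxycycline) and 77.8 (doxycycline), the share past the midpoint (%) was 47.5 (shRNA5), 46.97 (shRNA7), 50.7 (no doxycycline) and 51.2 (doxycycline), the median AT content (%) was 56.05 (no doxycycline) and the fold in number was 8.603 (shRNA5 over control) and 13.3 (shRNA7 over control). With a limit of 5 kb, the deep intron share (%) was 18.9 (control), 33.04 (shRNA5), 37.2 (shRNA7), 41.02 (no doxycycline) and 43.98 (doxycycline), the share past the midpoint (%) was 55.3 (control), 53.3 (shRNA5, reversed), 52.7 (shRNA7, reversed), 55.4 (no doxycycline) and 55.3 (doxycycline), the intron share of deep summits (%) was 82.6 (shRNA5), 85.6 (shRNA7) and 84.2 (no doxycycline) and the density ratio of the longest to the shortest genes was 0.1496 (no doxycycline). In genes with a start peak in the list, the share past the midpoint (%) was 48.4 (control), 47.5 (shRNA5) and 47.3 (shRNA7), the density ratio of the longest to the shortest genes was 0.0753 (control), 0.304 (shRNA7) and 0.145 (no doxycycline), the intron share of deep summits (%) was 76.8 (control), 84.8 (shRNA5) and 87.1 (shRNA7) and the median AT content (%) was 59.3 (shRNA5, reversed), 60.5 (shRNA7), 56.1 (no doxycycline) and 57.9 (doxycycline). With lists cut to 5287 peaks, the deep intron share (%) was 17.7 (shRNA5), 18.7 (shRNA7), 9.06 (no doxycycline) and 17.6 (doxycycline), the share past the midpoint (%) was 53.96 (shRNA5, reversed), 53.1 (shRNA7, reversed), 54.9 (no doxycycline) and 57.8 (doxycycline), the density ratio of the longest to the shortest genes was 0.101 (shRNA5), 0.151 (shRNA7), 0.0366 (no doxycycline) and 0.0535 (doxycycline) and the median AT content (%) was 57.8 (shRNA5, reversed), 59.6 (shRNA7), 53.5 (no doxycycline) and 57.2 (doxycycline). With peaks that touched no coding exon, the deep intron share (%) was 9.69 (control), 24.96 (shRNA5), 29.4 (shRNA7), 38.1 (no doxycycline) and 39.6 (doxycycline), the median AT content (%) was 57.4 (control), 59.4 (shRNA5), 60.6 (shRNA7) and 56.3 (no doxycycline) and the fold in number was 11.1 (shRNA5 over control), 17.6 (shRNA7 over control) and 0.735 (doxycycline over no doxycycline). With at least 50% of both peaks shared, the overlapped share (%) was 33.2 (control by shRNA5), 8.95 (control by shRNA7), 32.5 (shRNA5 by shRNA7), 0.681 (shRNA7 by control), 3.92 (shRNA5 by control), 18.5 (doxycycline by no doxycycline) and 14.02 (no doxycycline by doxycycline). With summits within 500 bp, the overlapped share (%) was 30.9 (control by shRNA5), 17.4 (control by shRNA7), 28.7 (shRNA5 by shRNA7), 1.37 (shRNA7 by control), 3.83 (shRNA5 by control), 31.5 (doxycycline by no doxycycline) and 23.9 (no doxycycline by doxycycline). With a score of at least 100 in both lists, the overlapped share (%) was 91.4 (control by shRNA5), 66.2 (control by shRNA7), 79.9 (shRNA5 by shRNA7), 1.904 (shRNA7 by control), 6.57 (shRNA5 by control), 45.1 (doxycycline by no doxycycline) and 49.7 (no doxycycline by doxycycline). With a fold enrichment of at least 10 in both lists, the overlapped share (%) was 53.8 (control by shRNA5), 62.3 (control by shRNA7), 66.5 (shRNA5 by shRNA7), 15.5 (shRNA7 by control), 41.7 (shRNA5 by control), 59.7 (doxycycline by no doxycycline) and 19.3 (no doxycycline by doxycycline). By intron bases under peaks, the fold in genes with a start peak in all 5 lists, all lengths, was 1.07 (doxycycline over no doxycycline, reversed).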
